A study of Caenorhabditis elegans with 14 samples.

Results

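The clec genes of Caenorhabditis elegans, which encode proteins with a C-type lectin-like domain, were followed in whole worms lacking the RFX transcription factor DAF-19 and in their controls, at the first larval stage (L1) and in adults. The family was taken as every gene with a numbered clec symbol and a probe set listed for that gene alone. Of 17118 genes with such a probe set on the Affymetrix array, 220 were clec genes. These genes had 236 probe sets, and each of the 15 genes with more than 1 was represented by the one with the highest mean over the 14 arrays. A further 22 clec probe sets that were listed with several genes were left out of the family and are described once below.

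C-type lectin-like domains fold around a pair of loops, and in some proteins they bind sugars in a calcium-dependent way. In Caenorhabditis elegans many clec genes encode secreted proteins, a number are expressed in the intestine, and several change in transcript level when worms meet bacterial pathogens. DAF-19 is known as the regulator of genes for sensory cilia, which it reaches through X-box motifs. The series addressed what DAF-19 controls at different stages of life.

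The 4 groups were daf-19 mutants that also carried a daf-12 mutation and controls that carried the daf-12 mutation without the daf-19 mutation, each at L1 and as adults. There were 4 mutant and 4 control arrays at L1, and 3 mutant and 3 control arrays in adults. The daf-12 mutation, which affects a nuclear hormone receptor, was thus shared by all groups, and no wild-type worms are part of the comparison. The daf-19 and daf-12 alleles are not named in the labels. The sample titles describe the adults as young, whereas the growth protocol gives harvest at 50 hours past the L4 stage, on OP50 bacteria. Nothing in the labels says that the replicates, which are called biological, came from separate cultures, so the p-values measure the spread between these samples. RNA came from whole worms, in which fewer cells of a type and less RNA per cell cannot be told apart.

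Values are the log2 signals that the authors deposited. A difference of 1 is a doubling, and levels were compared within a probe set only. A gene passed the test when the limma fit over all 22548 tested probe sets gave a Benjamini-Hochberg adjusted p under 0.05. Where every array of a group lay below the lower quartile of its own array, the gene is described as dim there. Array medians ran from 4.72 to 4.76 at L1 and from 5.91 to 6.02 in adults, so differences between the stages carry the scaling of the arrays. The targeted gene was read by 2 probe sets. On the dimmer of the daf-19 probe sets it was lower by a log2 difference of -0.69 at L1 (SE 0.10, adjusted p = 0.00281) and of -0.64 in adults (SE 0.12, adjusted p = 0.0163), with all mutant arrays below all control arrays at each stage. On the brighter daf-19 probe set the differences were -0.70 (adjusted p = 0.0125) and -0.56 (adjusted p = 0.105), the latter passing without L1 control array 4 (adjusted p = 0.0332).

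Most of the family did not differ detectably between the genotypes. At L1, 5 of 220 clec genes (2.27%) were higher and 1 (0.455%) was lower in the mutants, where 0.386% of all 17118 genes were higher and 0.83% were lower. In adults 2 clec genes (0.909%) were higher and 1 (0.455%) was lower, beside 0.368% and 0.695% of all genes. No clec gene passed at both stages, and 211 passed at neither. The median log2 difference of the family was 0.02 at L1, where the median of all genes was 0.005, and 0.027 in adults, where the median of all genes was also 0.027. The middle of the family was no wider than that of genes at large, with quartiles of -0.055 and 0.096 at L1 beside -0.083 and 0.085 for all genes, and of -0.047 and 0.103 in adults beside -0.057 and 0.097. Large differences were a greater share of it, which was not tested: 5.45% of clec genes had a log2 difference beyond 0.5 in either direction at L1, against 3% of all genes, and in adults the shares were 6.36% and 3.28%.

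Many clec genes gave low signals. In the L1 controls 63 of the 220 (28.6%) were dim, against 19.4% of all genes, and in the adult controls 59 (26.8%) were, against 22.6%. Across all 4 groups 34 clec genes (15.5%) were dim throughout, as were 12% of all genes. RefSeq's current table for the worm (assembly WBcel235) annotated 202 of the 220 genes as protein coding and 18 as pseudogenes. By chromosome, 77 lay on V, 47 on II, 45 on IV, 31 on I, 17 on III and 3 on X.

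At L1 the genes that rose in the mutants were clec-10, clec-31, clec-82, clec-54 and clec-28, and the gene that fell was clec-194. They are on chromosomes II (clec-10), V (clec-31, clec-54 and clec-28) and IV (clec-82 and clec-194). The changes ran from 1.45-fold for clec-28 to 5.45-fold for clec-194. In the plot of each array's values for the genes that passed, the mutant and control arrays of these 6 genes are separate at L1.

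**Figure D1:**
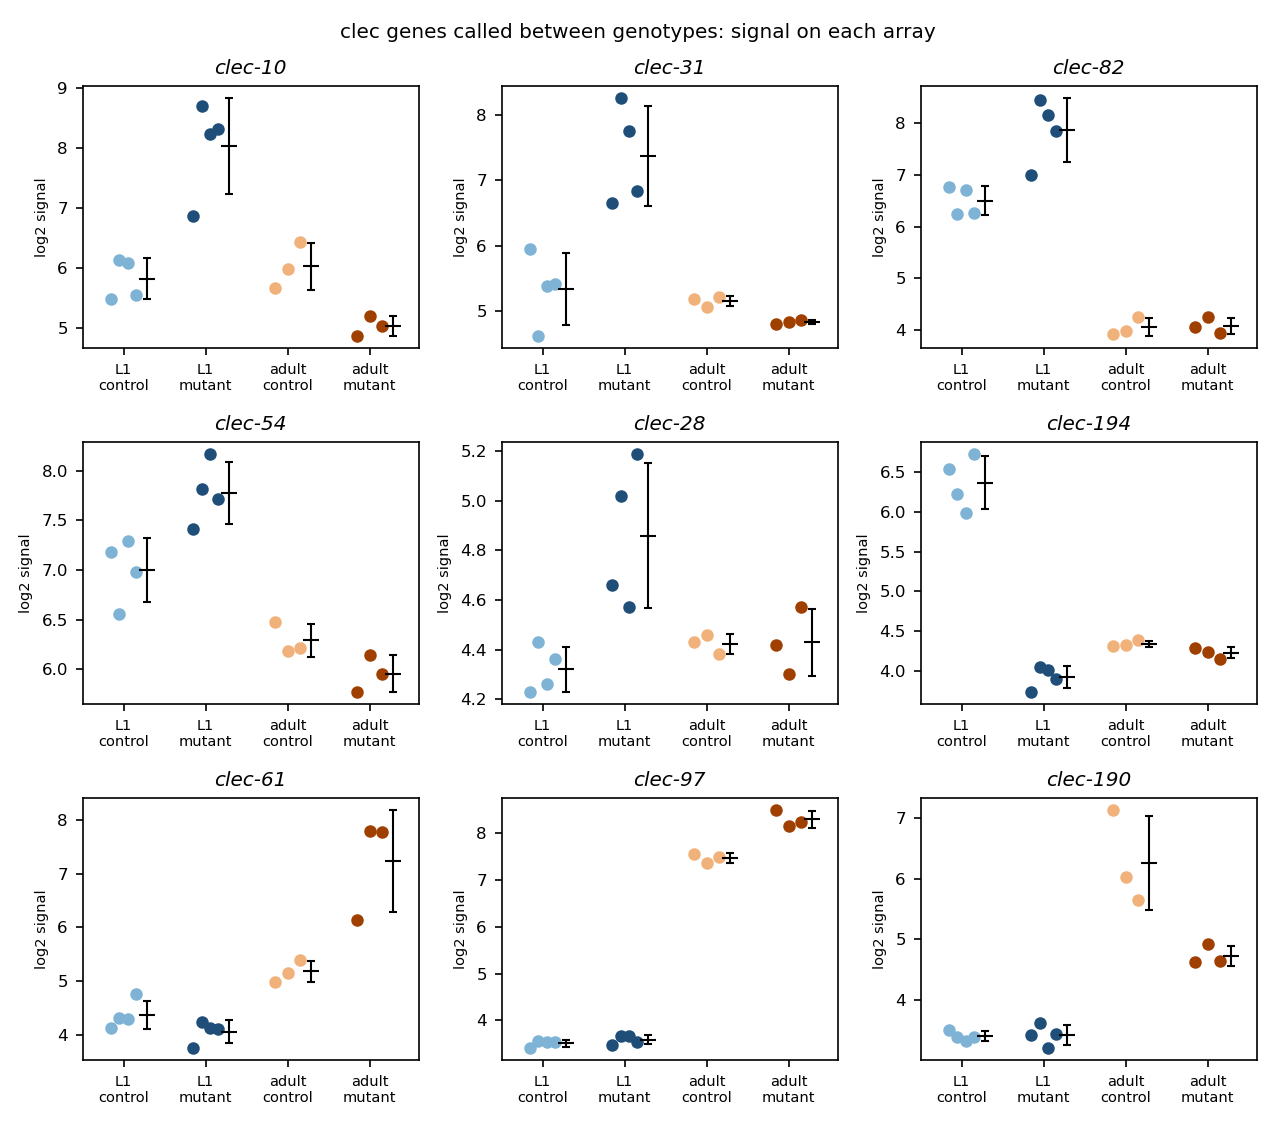
Log2 signal (vertical axis) of each clec gene that passed the test between genotypes at L1 or in adults, with 1 point per array, the group mean ± SD beside the points and the 4 groups along the horizontal axis. The L1 mutant points of clec-194 lie between 3.73 and 4.04 and its L1 control points between 5.98 and 6.73, whereas its adult points lie between 4.15 and 4.38 in both genotypes.

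The log2 signal of clec-194 was 3.73, 4.04, 4.01 and 3.90 on L1 mutant arrays 1 to 4 and 6.54, 6.22, 5.98 and 6.73 on L1 control arrays 1 to 4. All mutant arrays lay far below all control arrays. The difference was -2.45 on the log2 scale (SE 0.13, adjusted p = 1.1e-07), or 5.45-fold lower. In adults the signals were 4.29, 4.24 and 4.15 in mutants and 4.31, 4.32 and 4.38 in controls. Both adult groups were dim for this probe set, so no fold is given there, and the adult difference of -0.11 had an adjusted p of 0.999.

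For clec-10 the L1 mutant arrays read 6.86, 8.70, 8.23 and 8.31 and the L1 control arrays 5.48, 6.13, 6.08 and 5.55. The groups did not overlap, and mutant array 1 was the lowest of the mutants. The mean was 8.03 ± 0.80 (SD, n = 4) in mutants and 5.81 ± 0.34 (SD, n = 4) in controls, a 4.64-fold difference (log2 difference 2.22, SE 0.31, adjusted p = 0.00172). In adults the order of the groups was the opposite, with 4.86, 5.20 and 5.02 in mutants and 5.66, 5.97 and 6.43 in controls. Those adult arrays did not overlap either, but the difference of -0.99 did not pass (SE 0.36, adjusted p = 0.365), although it did without L1 mutant array 1 (adjusted p = 0.0422). The clec-10 probe set is of the kind that can match several transcripts. A second, dimmer probe set for clec-10 gave a smaller L1 rise of 1.29 (adjusted p = 0.00452) and an adult difference of -0.88 (adjusted p = 0.12).

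Signals of clec-31 on the L1 mutant arrays were 6.65, 8.26, 7.75 and 6.84, and on the L1 control arrays 5.95, 4.62, 5.38 and 5.41. Every mutant array was above every control array, with wide spread in both groups. The rise was 4.10-fold (log2 difference 2.04, SE 0.31, adjusted p = 0.0036). Adult arrays were close together, at 4.81, 4.84 and 4.87 in mutants and 5.19, 5.07 and 5.22 in controls. The adult groups did not overlap, and their difference of -0.32 did not pass (adjusted p = 0.999).

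The L1 signals of clec-82 were 7.0, 8.44, 8.15 and 7.85 in mutants and 6.76, 6.24, 6.71 and 6.27 in controls. Mutant array 1 again lay nearest the controls without overlapping them. The rise was 2.58-fold (log2 difference 1.36, SE 0.24, adjusted p = 0.00958). In adults the probe set was dim on all arrays, between 3.93 and 4.25.

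For clec-54 the L1 values were 7.41, 7.82, 8.17 and 7.72 in mutants and 7.18, 6.56, 7.29 and 6.98 in controls. The groups did not overlap, and mutant array 1 stood just above control array 3. The rise was 1.71-fold (log2 difference 0.78, SE 0.17, adjusted p = 0.0416), and the adult difference was -0.34 (adjusted p = 0.857).

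The smallest of the L1 rises was that of clec-28, whose signals were 4.66, 5.02, 4.57 and 5.19 in mutants and 4.23, 4.43, 4.26 and 4.36 in controls. The lowest mutant value was just above the highest control value. The rise was 1.45-fold (log2 difference 0.54, SE 0.12, adjusted p = 0.0473). Adult signals lay between 4.30 and 4.57 in both genotypes, with a difference of 0.01.

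The clec-54 and clec-28 calls lay close to the threshold, and leaving out any of many single arrays ended them. For clec-54 the adjusted p was 0.0835, 0.126 and 0.0757 without L1 mutant arrays 2, 3 and 4, and 0.106 and 0.114 without L1 control arrays 2 and 4. It was 0.0542, 0.0551 and 0.0687 without adult mutant arrays 1, 2 and 3, and 0.0648 and 0.0601 without adult control arrays 2 and 3, which enter through the shared estimate of the spread. The clec-28 call was lost, at adjusted p from 0.0585 to 0.118, without any 1 of the 14 arrays other than L1 mutant arrays 1 and 3. The count of L1 rises accordingly was 3 without L1 mutant array 2, L1 control array 2 or 4, any 1 adult mutant array, or adult control array 2 or 3. The shares of all genes that passed in those fits are not given. The clec-10 and clec-194 calls held in all 26 alternative fits, with log2 differences from 1.29 to 2.60 and from -2.86 to -2.33.

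A control signal that can reflect RNA quality moved with genotype at L1. The 3′ minus 5′ log2 signal of the Gapdh control probe sets ran from 3.83 to 4.12 in the L1 mutants and from 3.16 to 3.83 in the L1 controls, and from -0.54 to -0.36 in adults. The 3.16 was that of L1 control array 2, and the other L1 controls lay from 3.74 to 3.83. With the Gapdh signal as a covariate, clec-10 (log2 difference 2.35, adjusted p = 0.0207) and clec-194 (log2 difference -2.55, adjusted p = 8.29e-06) still passed. Under that covariate clec-31 had a difference of 1.52 (adjusted p = 0.0949), clec-82 of 1.20 (adjusted p = 0.148) and clec-54 of 0.55 (adjusted p = 0.422), and clec-28, with 0.55 against 0.54 without the covariate, had an adjusted p of 0.249.

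The reported fit did not pair arrays by replicate number. With the replicate number as a random block, the L1 counts were 6 higher and 2 lower. The share of all genes that passed under the block is not given, so these counts are not a result about the family. The genes added were clec-154, on chromosome III, with a difference of 0.32, and clec-52, on chromosome IV, with a difference of -0.42. Both were named only because the block changed their call, after their values were seen.

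Counted by arrays that do not overlap, 11 clec genes (5%) had all L1 mutant arrays above all L1 control arrays, and 3 (1.36%) had all below, where the shares of all genes were 1.9% and 2.66%. At an unadjusted p under 0.05, 21 clec genes (9.55%) were higher and 7 (3.18%) lower in the L1 mutants, where all genes gave 4.29% and 6.23%.

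In adults clec-61 and clec-97 rose in the mutants and clec-190 fell. They are on chromosomes II, I and IV. None of these was among the genes that passed at L1, and clec-97 and clec-190 were dim in both L1 groups.

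Adult signals of clec-61 were 6.14, 7.80 and 7.78 on mutant arrays 1 to 3 and 4.99, 5.16 and 5.39 on control arrays 1 to 3. Mutant array 1 lay well below the other mutants and above every control. The mean was 7.24 ± 0.95 (SD, n = 3) against 5.18 ± 0.20 (SD, n = 3), a 4.17-fold rise (log2 difference 2.06, SE 0.33, adjusted p = 0.00587). At L1 the mutant arrays were at 3.75, 4.24, 4.13 and 4.11 and the control arrays at 4.12, 4.31, 4.29 and 4.75, which overlap, with a difference of -0.31 (adjusted p = 0.855). The clec-61 probe set can match several transcripts.

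The adult values of clec-97 were 8.49, 8.14 and 8.24 in mutants and 7.55, 7.35 and 7.49 in controls. Replicates were tight and the groups did not overlap. The rise was 1.77-fold (log2 difference 0.83, SE 0.10, adjusted p = 0.000658), and it passed in all 26 alternative fits. L1 signals lay between 3.41 and 3.67 in both genotypes.

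For clec-190 the adult signals were 4.62, 4.92 and 4.65 in mutants and 7.13, 6.02 and 5.64 in controls. All mutants were below all controls, and control array 1 stood above the other controls. The fall was 2.89-fold (log2 difference -1.53, SE 0.26, adjusted p = 0.00911). The clec-190 probe set is of a kind that can match several transcripts. Without control array 1 the difference was -1.10 and still passed, whereas without mutant array 1 or mutant array 3 the adjusted p was 0.0508 or 0.0517, which left no clec gene lower in adults.

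Adult control array 1 stood apart in other clec genes too. Its deviations from the group mean over all genes had an SD of 0.20, where those of the other adult arrays ran from 0.11 to 0.16. The signals of clec-196 were 5.76, 6.43 and 6.06 in adult mutants and 6.31, 7.88 and 7.68 in adult controls, so that control array 1 fell within the mutant range. The clec-196 difference of -1.21 did not pass (SE 0.30, adjusted p = 0.0856), but without that array it was -1.70 (adjusted p = 4.5e-05).

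In clec-266, on chromosome X, adult mutants read 7.77, 8.32 and 8.11 and adult controls 8.32, 10.14 and 10. Control array 1 equalled the highest mutant. The clec-266 difference of -1.42 had an adjusted p of 0.0843 with all arrays, and without control array 1 it was -2.0 (adjusted p = 2.96e-05). Array 1 was also the lowest of the adult mutants in both genes. With the replicate number as a random block, clec-196 (adjusted p = 0.0236) and clec-266 (adjusted p = 0.0255) passed. Both clec-196 and clec-266 were singled out for their dependence on control array 1 after their values were seen. Without adult control array 1, 5 clec genes were lower in adult mutants. Without L1 mutant array 1, 2 were. The shares of all genes that passed in these fits are not given, so the counts are not a result about the family.

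Adult mutant and control arrays did not overlap in 15 clec genes (6.82%) with the mutants above and 17 (7.73%) with the mutants below, where all genes gave 7.9% and 5.84%. At an unadjusted p under 0.05, 5 clec genes (2.27%) were higher and 15 (6.82%) lower in adult mutants, beside 3.16% and 4.93% of all genes.

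The genotype effect itself differed between the stages for 5 clec genes. The adult effect minus the L1 effect was positive for 3 clec genes and negative for 2, where 0.526% of all genes passed upwards and 0.45% downwards. It was 2.37 for clec-61 (SE 0.44, adjusted p = 0.0186), 2.34 for clec-194 (SE 0.20, adjusted p = 3.19e-05) and 0.75 for clec-97 (SE 0.13, adjusted p = 0.0155). On the other side it was -3.21 for clec-10 (SE 0.47, adjusted p = 0.00332) and -2.36 for clec-31 (SE 0.47, adjusted p = 0.0303). Both adult groups of clec-194 and both L1 groups of clec-97 were dim, so a genotype effect could hardly be read there. For these genes the test cannot separate a lack of effect at that stage from a lack of signal. The plot of the adult against the L1 difference places clec-194, clec-31, clec-61 and clec-97 near 1 of the axes and clec-10 away from both.

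**Figure D2:**
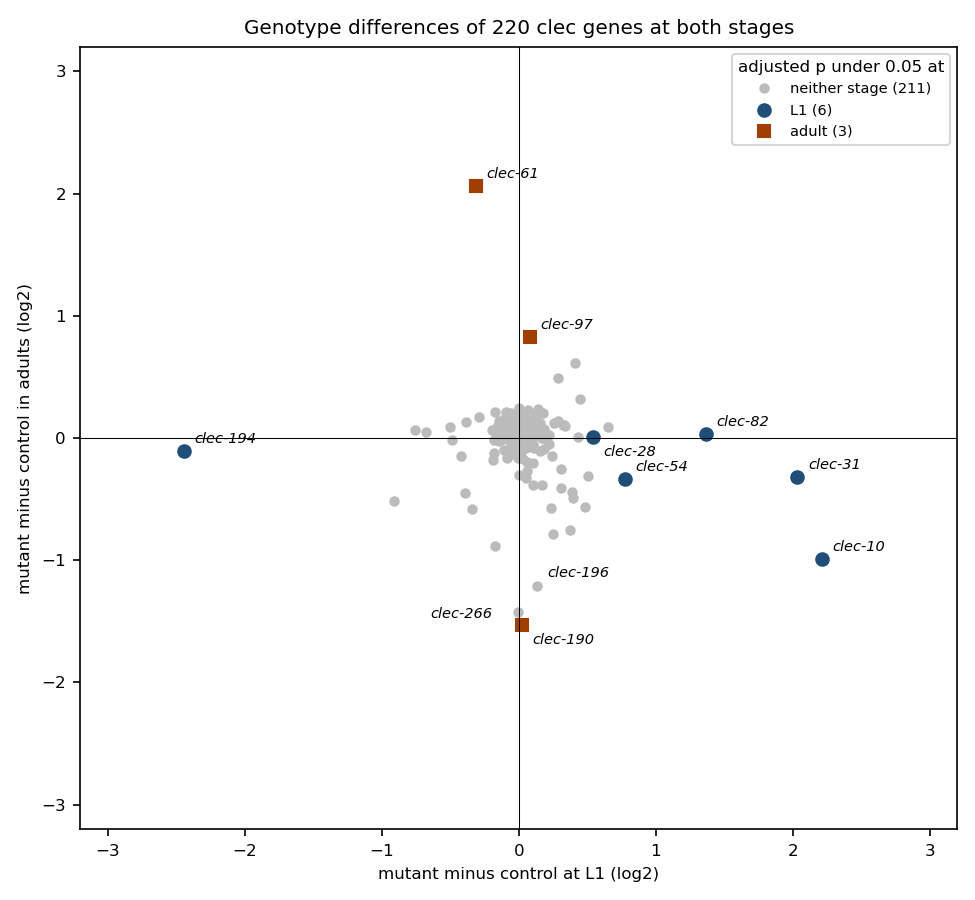
Log2 difference of mutant minus control in adults (vertical axis) against that at L1 (horizontal axis), with 1 point for each of the 220 clec genes the genes that passed between genotypes at L1 (circles) or in adults (squares) coloured, and clec-196 and clec-266 also named. Most points lie near 0 on both axes, and clec-10 has an L1 difference of 2.22 and an adult difference of -0.99.

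The remaining genes that passed at 1 stage did not pass this test of the difference. It was -1.33 for clec-82 (adjusted p = 0.127), -1.11 for clec-54 (adjusted p = 0.0647), -1.56 for clec-190 (adjusted p = 0.0514) and -0.53 for clec-28 (adjusted p = 0.312). Of these, clec-82 (adjusted p = 0.00344) and clec-54 (adjusted p = 0.026) passed without L1 mutant array 1, and clec-190 passed without adult control array 1 (adjusted p = 0.00302) or 3 (adjusted p = 0.01). The difference for clec-31 lost its call, at adjusted p from 0.0505 to 0.0862, without L1 mutant array 3, L1 control array 2, 3 or 4, any 1 adult mutant array, or adult control array 2 or 3. Those for clec-61 and clec-97 were lost without adult control array 2 (adjusted p = 0.0629 for both), and that for clec-61 also without adult mutant array 2 (adjusted p = 0.0555) or 3 (adjusted p = 0.0616). With the replicate number as a random block, 3 differences were positive and 7 negative, with clec-54 (adjusted p = 0.0262) and clec-190 (adjusted p = 0.02) among the latter. With the fixed block that for clec-31 did not pass (adjusted p = 0.0585). With the Gapdh covariate those for clec-31 (adjusted p = 0.211), clec-61 (adjusted p = 0.0505) and clec-97 (adjusted p = 0.115) did not pass. Without adult control array 1 the negative count was 7, without L1 mutant array 1 it was 5, and without L1 mutant array 4 it was 3. Shares of all genes under the block and in these fits are not given, so the counts are not a result about the family.

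Several clec genes are known from work on infection and were described whatever they did here. The genes clec-60, clec-67 and clec-85 respond to bacterial pathogens, and their expression has been tied to the p38 MAP kinase PMK-1. Their L1 differences were 0.66 for clec-60 (adjusted p = 0.435), -0.34 for clec-67 (adjusted p = 0.834) and 0.26 for clec-85 (adjusted p = 0.777). In adults they were 0.09, -0.58 and 0.13, with adjusted p from 0.855 to 0.999. The L1 mutant arrays of clec-60 were spread widely, at 4.76, 5.37, 5.98 and 4.19, against 4.58, 4.42, 4.53 and 4.15 in controls, and the groups overlapped.

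Resistance to Serratia marcescens has been linked to clec-39 and clec-49. In clec-39, dim in all 4 groups, the differences were 0.17 at L1 and 0.04 in adults. In clec-49 the L1 mutants read 7.06, 7.80, 7.52 and 7.55 and the L1 controls 6.97, 6.80, 7.52 and 7.07, and the difference was 0.39 (adjusted p = 0.478). The clec-49 difference in adults was -0.44 (adjusted p = 0.612).

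The response to Bacillus thuringiensis involves clec-4, clec-41 and clec-42. Their L1 differences were 0.06, -0.50 and -0.17, and their adult differences -0.27, 0.09 and 0.21, with adjusted p of 0.615 or above throughout. Further clec genes named whatever they did were clec-38, clec-78, clec-87 and clec-91. Differences of these lay between -0.12 and 0.24 at both stages and did not pass.

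Many clec genes sit beside one another in the genome. In RefSeq's gene order (assembly WBcel235), 137 of the annotated clec genes fell into 45 runs of at least 2 neighbours, and 79 into 16 runs of at least 3. The longest run held 13 genes, from clec-40 to clec-24 on chromosome V, and included clec-31. The 8 other measured genes of that run had L1 differences from -0.10 (clec-37) to 0.18 (clec-40), none of which passed, beside 2.04 for clec-31. No run of 3 or more held more than 1 gene that passed between genotypes. Runs were strict, however: only F49A5.12 lies between clec-24, the end of the run of clec-31, and clec-28, which also rose at L1.

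The run of 6 genes around clec-97, from clec-94 to clec-99 on chromosome I, gave adult differences from 0.02 to 0.14 in its 5 other measured genes, beside 0.83 for clec-97. In the run of 5 genes that holds clec-54, the 4 others had L1 differences from -0.09 (clec-56) to 0.41 (clec-227, smallest adjusted p of the run 0.409). The neighbour of clec-28, clec-33, had -0.01 at L1. The genes clec-10, clec-61, clec-82, clec-190 and clec-194 had no clec gene directly next to them. Only Y54G2A.7 lies between clec-82 and clec-83, however, and only M199.7 between clec-189 and clec-190. The L1 difference of clec-83 was -0.035, and clec-189 was not measured.

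Probe sets outside the choice of 1 per gene added few calls. Of the 22 probe sets listed with several genes, 1 passed, that for F56A4.2 and clec-209 together, with an adult difference of -1.52 (SE 0.28, adjusted p = 0.0154) and an L1 difference of -0.96 (adjusted p = 0.082). Its signal cannot be assigned to either gene. For clec-150 a dimmer probe set fell in adult mutants by 0.62 on the log2 scale (adjusted p = 0.0119), whereas its brightest probe set had -0.41 (adjusted p = 0.34).

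Other effectors of immunity, most of them secreted, were listed beside the family: lysozymes, caenacins, defensin-like and saposin-like peptides, CUB-like proteins and further infection response genes. Of 61 listed genes 53 were measured. At L1, 3 rose and 0 fell by limma's adjusted p, where 0.386% and 0.83% of all genes did. At an unadjusted p under 0.05 the L1 counts were 6 higher and 10 lower, where all genes gave 4.29% and 6.23%, and the list's median difference was 0.04 beside 0.005 for all genes. In adults 2 rose and 3 fell, where 0.368% and 0.695% of all genes did, and the median was 0.013 beside 0.027.

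The L1 rises were those of the invertebrate-type lysozymes ilys-5 (log2 difference 1.46, adjusted p = 0.000952) and ilys-3 (1.11, adjusted p = 0.0179) and of the caenacin cnc-3 (1.20, adjusted p = 0.0129). In adults irg-5, a CUB-like infection response gene, read 7.24, 7.43 and 7.03 in mutants and 10.75, 10.68 and 10.29 in controls. The irg-5 fall of -3.34 (SE 0.15, adjusted p = 1.23e-08) was larger than any of a clec gene at either stage. The CUB-like genes dod-24 (-3.62, adjusted p = 0.000547) and dod-22 (-1.53, adjusted p = 0.000145) also fell. The caenacin cnc-4 (1.12, adjusted p = 0.0429) and the defensin-like abf-2 (0.67, adjusted p = 0.021) rose. The calls of ilys-3, abf-2 and cnc-4 did not hold in every fit that left out 1 array. The ilys-3 call was lost without L1 control array 4 (adjusted p = 0.0551), that of abf-2 without adult mutant array 1 or adult control array 2 or 3 (adjusted p from 0.0903 to 0.117), and that of cnc-4 without L1 control array 1, 2 or 4, any 1 adult mutant array, or adult control array 2 or 3 (adjusted p from 0.0516 to 0.212).

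Of 38 innate immune signalling genes and regulators, 36 were measured and 0 passed at either stage by limma's adjusted p. Of all genes 1.22% passed at L1 and 1.06% in adults, so lists this short may hold few or none. At an unadjusted p under 0.05 the L1 counts were 3 higher and 3 lower, where all genes gave 4.29% and 6.23%. The adult counts were 0 and 0, where all genes gave 3.16% and 4.93%. Of the 12 galectins, the other large lectin family of the worm, 0 passed at L1 and lec-5 rose in adults (0.62, adjusted p = 0.0194), and leaving out any of adult mutant arrays 1 and 3 and adult control arrays 2 and 3 ended that call (adjusted p from 0.0679 to 0.116).

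Marker lists were read for the cells in which clec genes may be expressed. Of 14 measured intestinal markers 0 passed at either stage, where 1.22% of all genes passed at L1 and 1.06% in adults. The log2 of the summed signal of these markers, led by the brightest, was 14.52 to 14.87 in L1 mutants and 14.61 to 14.75 in L1 controls. In adults it was 15.31 to 15.38 against 15.38 to 15.45. For hypodermis and cuticle 0 of 11 passed, with log2 sums of 13.50 to 13.68 against 13.74 to 13.89 at L1 and of 13.97 to 14.27 against 14.18 to 14.84 in adults. At an unadjusted p under 0.05, 5 of these 11 were lower and 0 higher in adult mutants, with a median difference of -0.34. All genes gave 4.93% lower and 3.16% higher. Ciliated neuron markers were lower in L1 mutants in 6 of 13 cases, beside 0.83% of all genes, with log2 sums of 8.58 to 8.68 against 9.19 to 9.35. In adults 0 of 13 passed. This list includes genes for sensory cilia, such as che-3, che-2, bbs-8 and osm-5, the class that DAF-19 is known to regulate. Its fall therefore cannot serve as a measure of the number of ciliated neurons. The part of these tissues in the clec differences was not tested.

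Between the stages, the ordering of the clec genes was led by very large differences. In controls the adult signal was higher for 182 clec genes (82.7%) and lower for 23 (10.5%), where 74% of all genes were higher and 15.8% lower. In mutants 181 clec genes were higher and 25 lower, where all genes gave 74.3% and 15.4%. Because the stages differed in scale, these splits moved when all arrays were brought to 1 distribution: in controls 70 were then higher and 60 lower, and in mutants 69 and 67. Higher calls were 88.8% of the clec calls in controls as deposited and 53.8% on the joint scale. The median over all genes shifted from 0.848 to -0.059 and that of the clec genes from 0.923 to 0.045. The Gapdh 3′ minus 5′ signal moved with stage as well, at 3.16 to 4.12 at L1 and -0.54 to -0.36 in adults, and its part in the stage differences was not tested.

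In controls 70 clec genes (31.8%) were higher in adults on both scales and 23 (10.5%) lower on both, beside 34.5% and 15.8% of all genes. For 24 clec genes the calls on the scales were opposite. The ranking below used 1 probe set per gene, and other probe sets could differ. As deposited, a dimmer probe set of clec-150 was 6.03 higher in adult controls, against 2.89 on its brightest. For clec-57 the difference was 1.08 on the dimmer and -1.65 on the brightest. Dimmer probe sets of clec-88, clec-87 and clec-72 kept the direction given below. Each clec gene named for a stage difference below kept its direction on both scales.

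**Figure D3:**
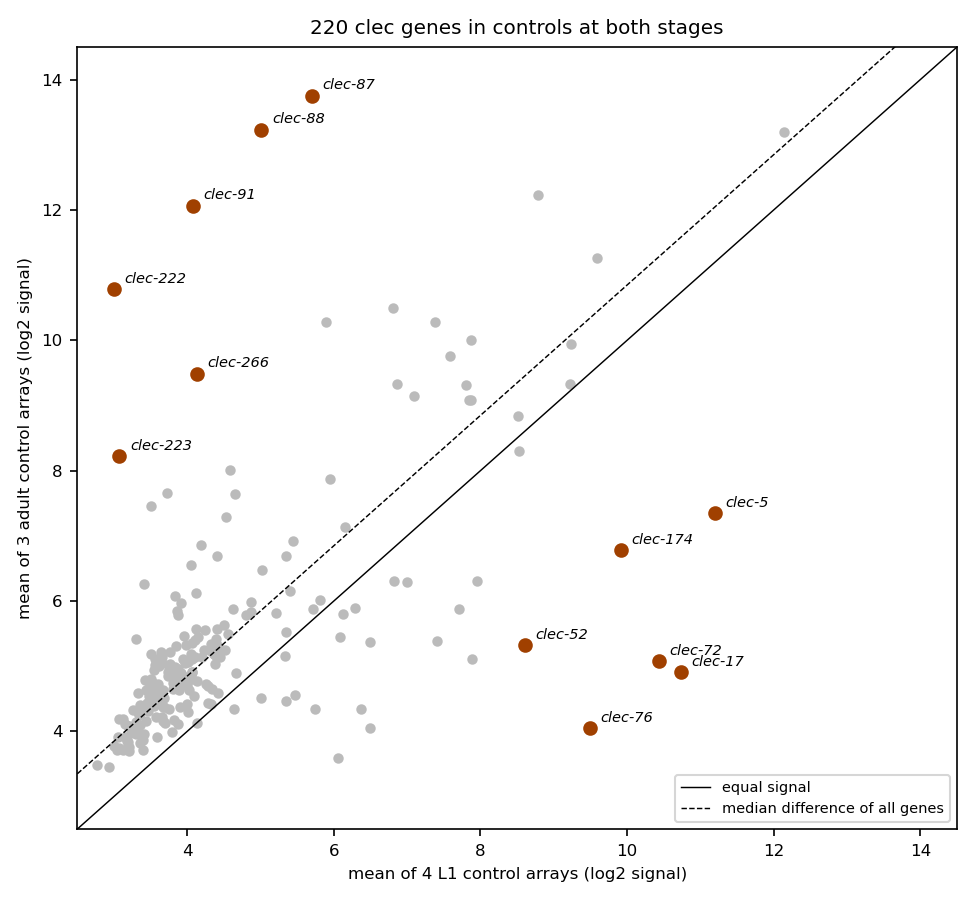
Mean log2 signal of each of the 220 clec genes in adult controls (3 arrays, vertical axis) against L1 controls (4 arrays, horizontal axis), with the genes of largest stage difference coloured and named, a solid line for equal signal and a dashed line for the median difference of all genes. The adult-high genes clec-88, clec-87, clec-91 and clec-222 stand at 10.79 or above in adults, and clec-17 and clec-72 stand above 10 at L1.

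The adult-high genes were led by clec-88, clec-87 and clec-91. The control arrays of clec-88 read 5.12, 5.11, 4.79 and 5.03 at L1 and 13.36, 13.22 and 13.12 in adults, a log2 difference of 8.22 as deposited and 7.07 on the joint scale. Those of clec-87 read 5.08, 6.16, 5.89 and 5.67 at L1 and 13.87, 13.67 and 13.72 in adults, a difference of 8.05 as deposited and 6.93 on the joint scale. In clec-91 the difference was 7.99 as deposited and 6.95 on the joint scale. None of these came near overlapping, and the genotype difference in adults was 0.11 for clec-88, 0.11 for clec-87 and 0.24 for clec-91, none of which passed.

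Next in controls came clec-222, clec-266 and clec-223, of which clec-222 and clec-223 were dim at L1. Measured from a floor at the lower quartile of the L1 arrays, the adult control mean of clec-222 was at least 133-fold higher on the deposited scale and at least 58.5-fold higher on the joint scale. For clec-223 the bounds were at least 22.6-fold and at least 8.27-fold. The clec-266 difference was 5.35 in controls and 3.94 in mutants as deposited, and 3.89 and 2.48 on the joint scale. In clec-97, dim at L1, the adult mean was at least 13.3-fold higher in controls and at least 23.5-fold higher in mutants as deposited, and at least 5.32-fold and 8.77-fold on the joint scale. Over the same stages the log2 of the summed signal of germline markers went from 8.52 to 8.75 in L1 controls to 15.08 to 15.42 in adult controls. Its part in the clec differences was not tested.

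The L1-high genes were led by clec-17, clec-76 and clec-72. The control arrays of clec-17 read 10.47, 10.67, 10.56 and 11.24 at L1 and 5.03, 4.80 and 4.89 in adults, a log2 difference of -5.83 in controls and -5.31 in mutants as deposited, and of -6.83 and -6.37 on the joint scale. Those of clec-72 read 10.20, 10.41, 10.64 and 10.47 at L1 and 5.12, 4.98 and 5.13 in adults, a difference of -5.35 as deposited and -6.41 on the joint scale. For clec-76, dim in adults, the L1 control mean was at least 30.9-fold higher as deposited and at least 64.9-fold higher on the joint scale. These stages were fully separate in both genes given by array.

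The clec-5 difference was -3.84 in controls and -3.82 in mutants as deposited, and -5.21 and -5.20 on the joint scale. That of clec-52 was -3.29 and -3.01 as deposited, and -4.60 and -4.38 on the joint scale. In clec-174 it was -3.13 and -2.73 as deposited, and -4.57 and -4.15 on the joint scale. The clec-174 probe set can match unrelated transcripts. For clec-82, dim in adults, the L1 mean was at least 3.87-fold higher in controls and at least 9.78-fold higher in mutants as deposited, and at least 9.36-fold and 23.9-fold higher on the joint scale. The log2 of the summed signal of pharynx markers was 13.20 to 13.53 in L1 controls and 9.62 to 10.23 in adult controls, and its part in these differences was not tested.

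How firmly each genotype call held is shown by its adjusted p under the other settings.

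**Figure D4:**
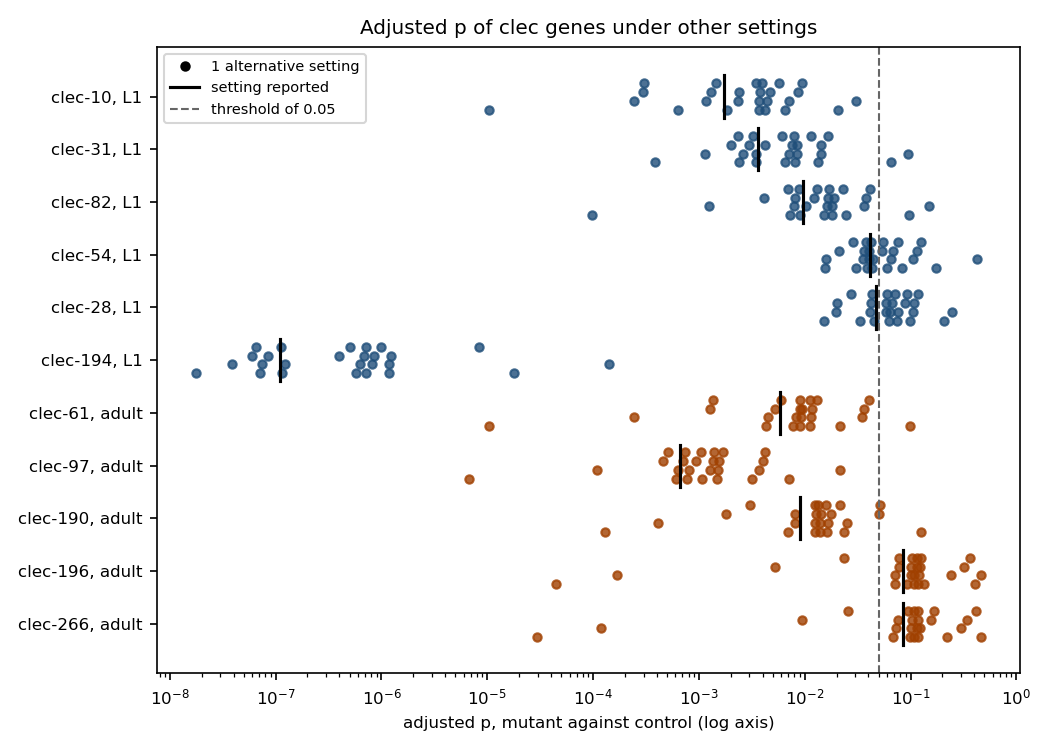
Adjusted p of mutant against control (horizontal log axis) for the named clec genes (vertical axis), with 1 point per alternative setting, a black bar for the setting reported and a dashed line at the threshold of 0.05. All points of clec-194, clec-10 and clec-97 lie below the threshold, those of clec-54 and clec-28 fall on both sides, and most of clec-196 and clec-266 lie above it.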

How the data were processed

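Whole-worm RNA from 14 samples was labelled with biotin from 6 ug of total RNA and read on 1-colour Affymetrix arrays, per the labels' protocols. The authors deposited 1 value per probe set and array, on a log2 scale as judged from the values. How they corrected, summarised and normalized the arrays, and with which programs, is not given in the sources used here. Array medians matched within a stage and differed between stages.

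Of the probe sets, 77 control ones were left out and 22548 were tested. Symbols came from the platform annotation and were looked up in RefSeq's gene table (assembly WBcel235), which held all 220 clec identifiers and changed 0 symbols. No gene name was given for 895 probe sets. The table lists 264 clec genes, and 44 without a single-gene probe set were not analysed here. In R 4.3.3, limma 3.58.1 fitted 4 group means over all arrays (lmFit and eBayes, 10 residual and 4.18 prior degrees of freedom), with contrasts for genotype at each stage, the difference of these effects, and stage within each genotype. P-values were adjusted by Benjamini-Hochberg over all tested probe sets within a contrast, with a threshold of 0.05. The fit was tested on simulated data. A fold against a dim group is a bound within 1 scaling of the arrays, taken against the higher of the dim probe set's own signal and the lower quartile of each array.

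Replicate numbers were taken from the sample titles. Over genes, the deviations of same-numbered mutant and control arrays from their group means correlated at 0.423, 0.317, 0.188 and 0.236 at L1, above 0.1 in each pair, and at 0.437, 0.108 and 0.036 in adults. Differently numbered adult arrays correlated at 0.326 for mutant 2 with control 3 and at 0.286 for mutant 3 with control 2, and negatively otherwise. The reported fit had no replicate block. The alternative fits with a block paired same-numbered arrays at both stages. No 2 arrays of a group held the same values. Precision is limited by how few arrays each group holds.

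The text names every clec gene that passed between genotypes, those that passed for the difference between stages, the 6 largest stage differences each way in each genotype, a fixed set of genes with reported roles, and up to 4 genes of each other list. The members, lists and named genes were chosen with earlier results of these data known. Alternatives covered the replicate block, normalization, variance model, array weights, fitted groups, dim and shared probe sets, the rule for genes with several probe sets, and each array left out. The fixed block and the Gapdh covariate were added after the data were seen.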

Additional observations from a re-analysis of the deposited data

Results flagged for a closer look

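The genotype effect of 5 clec genes differed between the stages by the test of the difference itself (limma, adjusted p as given with each gene in the report). The adult effect minus the L1 effect was 2.37 for clec-61, 2.34 for clec-194 and 0.75 for clec-97, and -3.21 for clec-10 and -2.36 for clec-31. In clec-61 and clec-97 the mutant and control arrays were separate in adults and overlapped at L1. In clec-194, clec-10 and clec-31 they were separate at both stages, with mutants above controls at L1 and below them in adults for clec-10 and clec-31. Signals of clec-194 in adults and of clec-97 at L1 were dim in both genotypes, which limits what the difference shows for them.

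Single arrays stood far from the other 3 of their group in named genes. L1 mutant array 2 was highest for clec-222 at 3.2, L1 control array 3 was highest for clec-39 at 3.38, and L1 control array 2 was highest for clec-78 at 4.46. Of 62 combinations of a gene and an L1 group examined, 3 stood out in this way, where 3.1 are expected by chance at 1 in 20. The adult groups were not examined in this way. The first 2 of these values are dim signals.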

How the results depend on the processing

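None of the named genes that passed changed direction under the 12 other settings or when 1 of the 14 arrays was left out. Between the stages, however, 24 clec genes in controls and 29 in mutants were called in opposite directions as deposited and with joint quantile normalization. At L1 the 5 higher clec genes became 1 when only the 2 groups entered the fit and 1 with the Gapdh covariate, and the 1 lower became 2 with the replicate block, random or fixed. The 3 higher immune effectors at L1 became 1 with only the 2 groups, 1 without probe sets that can match several transcripts, 5 with the fixed block and 1 with the Gapdh covariate. In adults the 2 higher clec genes became 7 with array weights, 1 with only the 2 groups and 1 without multi-transcript probe sets. The 1 lower became 4 with the random block (clec-196, clec-266 and clec-66 added), 5 with the fixed block, 12 with array weights and 0 without multi-transcript probe sets. In that last setting clec-61 and clec-190 had no probe set left to test. The block settings paired same-numbered arrays at both stages, although same-numbered adult arrays correlated at 0.437 for number 1 and only at 0.108 and 0.036 for the others. Of adult immune effectors, the 2 higher became 7 with array weights and 1 without multi-transcript probe sets, and the 3 lower became 5 with array weights. For the difference between stages, the 3 positive became 1 with the Gapdh covariate, and the 2 negative became 7 with the random block, 10 with the fixed block, 12 with array weights, 4 with quantile normalization per stage, 4 with the median of a gene's probe sets and 1 with the Gapdh covariate. The stage counts in controls (182 higher and 23 lower) became 70 and 60 with joint quantile normalization and 40 and 123 with arrays centred on their median, and those in mutants (181 and 25) became 69 and 67, and 40 and 114. The cause of these moves was not tested, apart from the fewer samples or probe sets that some settings use. Shares of all genes that passed under each setting are not given, so a moved count is not a result about the family.

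With 1 array left out, counts ran from 3 to 6 (L1 higher), 1 to 1 (L1 lower), 2 to 4 and 0 to 0 (L1 effectors higher and lower), 2 to 2 and 0 to 5 (adult higher and lower), 0 to 4 and 3 to 4 (adult effectors), 1 to 3 and 1 to 7 (difference between stages), 179 to 184 and 21 to 23 (stage in controls), and 176 to 183 and 24 to 27 (stage in mutants). Shares of all genes in these fits are not given either. The family's median ran from -0.003 to 0.031 at L1 and from 0.002 to 0.072 in adults. Of single genes, clec-31 and clec-82 lost their L1 call with only the 2 groups (adjusted p = 0.0654 and 0.0975), as clec-61 and clec-190 did in adults (adjusted p = 0.0985 and 0.125). The adult fall of clec-10 passed with array weights (adjusted p = 0.00689) and without L1 mutant array 1 (adjusted p = 0.0422), and the adult rise of clec-91 passed with array weights (0.28, adjusted p = 0.0297). Dim signals limit the 34 clec genes below the lower quartile in all groups.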
